A study of Mus musculus with 4 samples.

Results

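The RNA of 10 genes of focal adhesions was followed in splenic B220+ cells with an intact or a truncated MIZ-1. The genes encode the kinases FAK (Ptk2), PYK2 (Ptk2b) and ACK1 (Tnk2), the actin-linking proteins talin (Tln1), vinculin (Vcl), zyxin (Zyx) and paxillin (Pxn), and the adaptors and scaffolds CRK (Crk), HEF1 (Nedd9) and GIT2 (Git2). They were chosen by their role, with earlier results of these data known, and are 10 of the 41214 genes of the count table. Each was found under 1 Ensembl identifier and each passed the filter on low counts.

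MIZ-1, encoded by Zbtb17, is a zinc finger transcription factor whose POZ domain mediates contacts with partner proteins. Both genotypes were on a C57BL/6 background and the mice were young adults. MIZ-1ΔPOZ mice carried a floxed POZ exon allele of Miz-1 and MB1-Cre, a Cre driven by the Cd79a (MB1) promoter, which is active from the early B cell stages onwards. MIZ-1WT mice were labelled wild type, and the sources used here do not say whether they carried MB1-Cre. B220+ splenocytes were bound to magnetic beads and lysed without stimulation. Each genotype had 2 libraries described as biological replicates. Nothing says how many mice each came from, so p-values measure the spread between these libraries.

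Each library held between 43026814 and 46387209 counts within genes. Levels are given as CPM, counts scaled to a common library total after TMM normalization. Zbtb17 was at 47.8 and 46.3 CPM in MIZ-1WT and at 37.3 and 38.0 CPM in MIZ-1ΔPOZ (log2 fold change -0.32, adjusted p = 0.00857, edgeR). Counts over all its exons do not show whether the POZ exons were lost. Xist had 49 and 60 counts in MIZ-1WT against 38145 and 40838 in MIZ-1ΔPOZ, and 4 genes of the Y chromosome were lower in MIZ-1ΔPOZ by log2 fold changes between -4.66 and -4.29. Sex and genotype therefore cannot be told apart in any comparison below. The B cell markers were abundant in all libraries, with a sum over 10 pan-B cell genes between 8576 and 10575 CPM. Cd79a itself, the gene that carries the Cre allele, had a log2 fold change of -1.44.

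Focal adhesions join integrins at the cell surface to actin filaments. Talin binds integrin tails and actin, vinculin reinforces that link, and paxillin is a platform on which kinases and adaptors gather. FAK autophosphorylates on a tyrosine that then binds SRC, after which CAS proteins such as HEF1 are phosphorylated and recruit CRK. B cells have no large focal adhesions in suspension, but use the same proteins when they adhere through integrins, migrate or spread on antigen. PYK2 is the FAK relative that blood cells are known for.

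FAK and PYK2 are the pair on which most of the results turn, so the coding sequence around the autophosphorylated tyrosine is shown for both, with its codon in capitals. Both runs were read 5′ to 3′ from GRCm38 along the minus strand and cross an exon junction. The run of Ptk2 (Ptk2-201, tyrosine 397) joins exons 14 and 15 within chr15:73276876-73292047, and that of Ptk2b (Ptk2b-202, tyrosine 402) joins exons 13 and 14 within chr14:66173851-66174761.
Ptk2: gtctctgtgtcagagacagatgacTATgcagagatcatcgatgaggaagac
Ptk2b: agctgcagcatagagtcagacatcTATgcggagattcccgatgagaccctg
The runs agree at 28 of 51 bases. Across their whole exons the longest stretch the genes share is 25 bases and they share 0 windows of 50 bases, so a read of that length cannot match both without mismatches.

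For each of 14554 genes the quasi-likelihood test of edgeR set MIZ-1ΔPOZ against MIZ-1WT, with Benjamini-Hochberg adjusted p-values and a threshold of 0.05. Log2 fold changes are MIZ-1ΔPOZ over MIZ-1WT. Of the 10 genes, 7 were called. Ptk2 was the only one called higher. Ptk2b, Tnk2, Vcl, Zyx, Crk and Git2 were called lower, which makes 6, and Pxn, Tln1 and Nedd9 were not called. The background was large, since 40.0% of all tested genes were called, 21.1% higher and 18.9% lower. The median log2 fold change of the 10 genes was -0.24 against -0.01 over all tested genes. The summed level of the 10 genes was 2106 and 2126 CPM in MIZ-1WT and 1882 and 2052 CPM in MIZ-1ΔPOZ. The values of the genotypes did not overlap for 9 of the 10 genes, while 74.8% of all tested genes were separated in this way. The count of genes without overlap was therefore near that of any genes in these libraries. Bulk RNA cannot tell fewer cells of a kind from less RNA per cell.

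**Figure D1:**
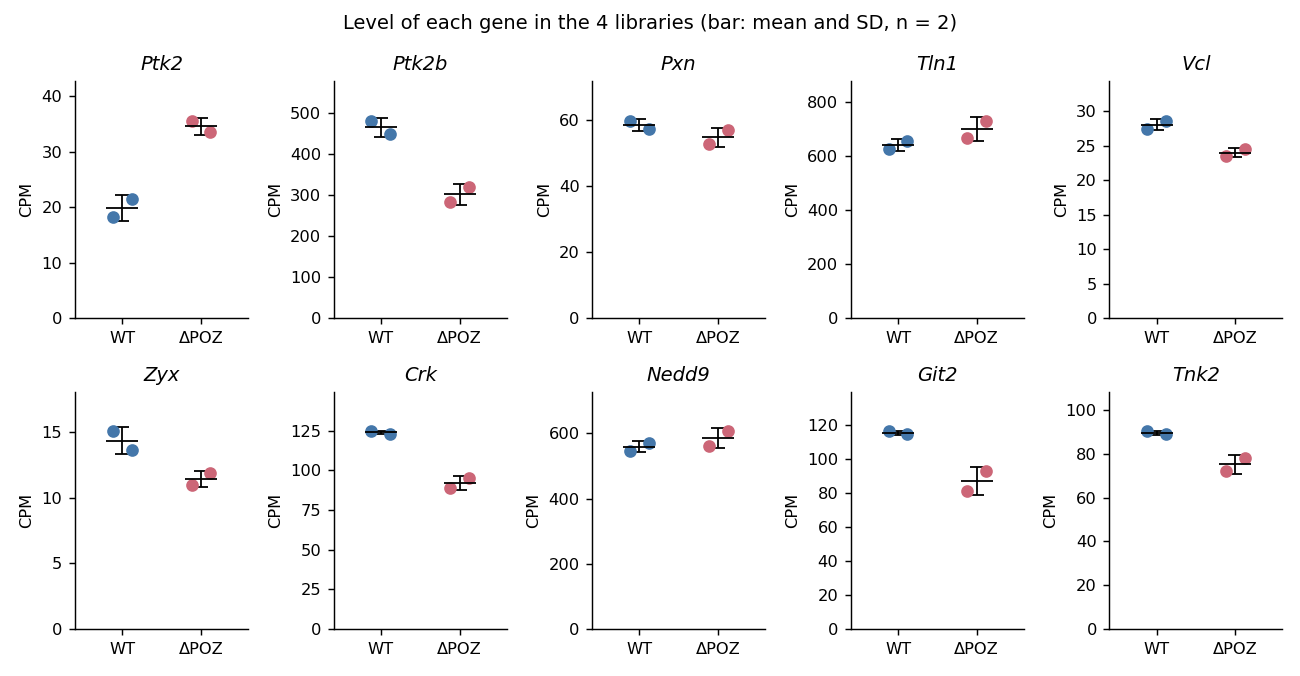
Level of each of the 10 genes in TMM normalized CPM on linear axes that start at 0, with 1 panel per gene, 1 point per library, and bars for the mean and SD of each genotype (n = 2). Ptk2 lies above its MIZ-1WT values in both MIZ-1ΔPOZ libraries (18.2 and 21.5 against 35.6 and 33.5 CPM), and the points of Nedd9 overlap.

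Ptk2 (ENSMUSG00000022607, minus strand, chr15:73205102-73423280) encodes FAK, the kinase that couples integrin engagement to SRC signalling. It had 792 and 902 counts in MIZ-1WT and 1695 and 1471 in MIZ-1ΔPOZ, or 18.2 and 21.5 CPM against 35.6 and 33.5 CPM. Both MIZ-1ΔPOZ libraries lay well above both MIZ-1WT libraries. The mean rose from 19.8 ± 2.34 to 34.6 ± 1.48 CPM (SD, n = 2), which is 1.75-fold. This is a log2 fold change of 0.80 (standard error 0.10, 95% confidence interval 0.56 to 1.04, adjusted p = 0.00300, edgeR). The study singled out Ptk2 in cells of these genotypes, so its direction is not independent evidence. In size, the change was at percentile 82.6 of all tested genes.

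Ptk2b (ENSMUSG00000059456, minus strand, chr14:66153257-66281052) encodes PYK2, which responds to calcium and to integrins. Its counts were 21027 and 18906 in MIZ-1WT and 13547 and 14083 in MIZ-1ΔPOZ, which gave 482 and 449.8 CPM against 285 and 321 CPM. It fell in both MIZ-1ΔPOZ libraries, opposite to Ptk2, and the gap between genotypes was wider than that between replicates. The mean went from 466 ± 22.8 to 303 ± 25.6 CPM (SD, n = 2), 1.54-fold higher in MIZ-1WT. On the log2 scale it changed by -0.62 (standard error 0.07, 95% confidence interval -0.80 to -0.44, adjusted p = 0.00280, edgeR).

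Tnk2 (ENSMUSG00000022791, plus strand, chr16:32643874-32683493) encodes ACK1, a kinase that binds active CDC42. Its counts were 3940, 3735, 3439 and 3437, with MIZ-1WT replicates 1 and 2 named before MIZ-1ΔPOZ replicates 1 and 2 here and below. In the same order its level was 90.3, 88.9, 72.3 and 78.3 CPM. The MIZ-1ΔPOZ libraries were the 2 lowest, and they differed more from each other than the MIZ-1WT libraries did. The difference of -0.25 on the log2 scale (standard error 0.06, adjusted p = 0.0195, edgeR) passed the threshold. It no longer did without MIZ-1WT replicate 1 (-0.24, adjusted p = 0.122, edgeR) or without MIZ-1WT replicate 2 (-0.27, adjusted p = 0.0940, edgeR). Such fits leave a genotype with 1 library, which is assumed to vary like the other group.

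Per kilobase of exon, the FAK family kinases stood far apart in level. Ptk2b was at 65.2 and 60.8 CPM per kilobase in MIZ-1WT and at 38.5 and 43.4 in MIZ-1ΔPOZ. Ptk2 was at 1.54 and 1.82 in MIZ-1WT and at 3.02 and 2.84 in MIZ-1ΔPOZ. Ptk2b thus exceeded Ptk2 in every library, by 42.4- and 33.4-fold in MIZ-1WT and by 12.8- and 15.3-fold in MIZ-1ΔPOZ. The exon lengths over all transcripts were 11803 bases for Ptk2 and 7398 for Ptk2b. Dividing by them makes these ratios larger than in plain CPM. Ptk2 made up 2.31% and 2.90% of the sum of both in MIZ-1WT and 7.27% and 6.14% in MIZ-1ΔPOZ, a mean difference of 4.10 percentage points (two-sided exact permutation p = 0.333, n = 2 per genotype). This is the smallest p that 4 libraries allow, so no single value of this kind can reach the threshold. The sum of both kinases was 66.7 and 62.6 CPM per kilobase in MIZ-1WT and 41.5 and 46.2 in MIZ-1ΔPOZ. The rise of Ptk2 was smaller than the fall of Ptk2b on this scale.

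**Figure D2:**
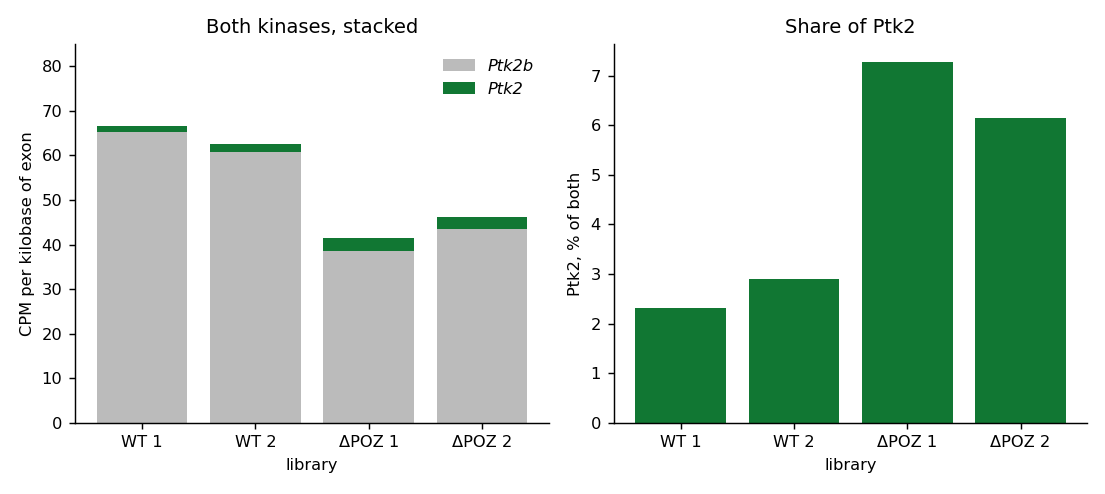
Ptk2 and Ptk2b in the 4 libraries, as bars stacked in CPM per kilobase of exon (left) and as the percentage of their sum that is Ptk2 (right), with 1 bar per library. Ptk2b makes up most of every stacked bar, and the share of Ptk2 lies between 2.31% and 2.90% in MIZ-1WT and between 6.14% and 7.27% in MIZ-1ΔPOZ.

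The genes whose log2 levels followed those of Ptk2 most closely over the 4 libraries were Hist1h3f, Rexo2 and Bzw2. Closeness was the Euclidean distance between centred log2 CPM values, which was 0.03, 0.04 and 0.04. Rexo2 was at 24.7, 29.1, 46.7 and 45.3 CPM and Bzw2 at 49.2, 55.7, 95.3 and 88.5 CPM. Their log2 fold changes were 0.78 and 0.81, beside 0.80 for Ptk2. Hist1h3f, a histone gene, is uncertain because near-identical copies can share its reads.

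Among the genes that link integrins to actin, vinculin and zyxin were called lower by small amounts and talin and paxillin were not called. Tln1 (ENSMUSG00000028465, minus strand, chr4:43531519-43562691), the integrin activator of blood cells, had 27278, 27607, 31844 and 32123 counts, or 625, 657, 669 and 732 CPM. The MIZ-1ΔPOZ libraries were above both MIZ-1WT libraries, but the gap between the nearest values was narrower than that between replicates. Its log2 fold change was 0.13 (95% confidence interval -0.03 to 0.28, adjusted p = 0.158, edgeR). Without MIZ-1ΔPOZ replicate 1 it was 0.20 and passed the threshold (adjusted p = 0.0431, edgeR). Tln1 shares 360 exon bases with Creb3 on the opposite strand, and the strand setting of the counting was not given in the sources used here.

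Vcl (ENSMUSG00000021823, plus strand, chr14:20929398-21033676) encodes vinculin, which is recruited to stretched talin. Its counts were 1199, 1204, 1119 and 1075, and its levels 27.5, 28.6, 23.5 and 24.5 CPM. The genotypes did not overlap. The log2 difference of -0.23 (standard error 0.07, 95% confidence interval -0.39 to -0.06) was just past the threshold (adjusted p = 0.0433, edgeR). The call was lost when any 1 library was left out, namely MIZ-1WT replicate 1 (-0.26, adjusted p = 0.132, edgeR), MIZ-1WT replicate 2 (-0.20, 0.205), MIZ-1ΔPOZ replicate 1 (-0.19, 0.131) or MIZ-1ΔPOZ replicate 2 (-0.24, 0.0615). It was also lost with the replicate number as a block (adjusted p = 0.0768, edgeR). Vcl shares 2090 exon bases with Ap3m1 on the opposite strand, which had 11707 counts over the 4 libraries.

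Zyx (ENSMUSG00000029860, plus strand, chr6:42349630-42360213) encodes zyxin, which brings actin-assembling VASP proteins to strained filaments. Its counts of 658, 573, 523 and 522 gave 15.1, 13.6, 10.99 and 11.9 CPM. Both MIZ-1ΔPOZ libraries were below both MIZ-1WT libraries. Its log2 difference of -0.33 (standard error 0.10, 95% confidence interval -0.57 to -0.08) was past the threshold (adjusted p = 0.0438, edgeR). The call was lost without MIZ-1WT replicate 1 (-0.25, adjusted p = 0.249, edgeR), without MIZ-1WT replicate 2 (-0.40, 0.0981) and without MIZ-1ΔPOZ replicate 1 (-0.26, 0.118), and with the replicate number as a block (0.0903). Epha1, which shares 236 exon bases with Zyx on the other strand, had 6 counts in all libraries together.

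Pxn (ENSMUSG00000029528, plus strand, chr5:115506676-115555987) encodes paxillin, the platform protein to which FAK, PYK2, GIT2 and vinculin bind. It had 2605, 2402, 2507 and 2490 counts and levels of 59.7, 57.2, 52.7 and 56.7 CPM. The highest MIZ-1ΔPOZ value lay just under the lowest MIZ-1WT value. Its log2 fold change was -0.10 (95% confidence interval -0.25 to 0.06, adjusted p = 0.263, edgeR), so a fall larger than 0.25 lies outside the interval.

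Of the adaptors, Crk and Git2 were called lower and Nedd9 was not called. Crk (ENSMUSG00000017776, plus strand, chr11:75679259-75706908) encodes the SH2 and SH3 adaptor that binds phosphorylated CAS proteins and paxillin. It had 5435, 5175, 4239 and 4169 counts, or 124.6, 123, 89.1 and 94.99 CPM. The MIZ-1WT libraries were nearly equal and both MIZ-1ΔPOZ libraries were lower. The mean was 124 ± 1.04 CPM in MIZ-1WT and 92.0 ± 4.19 CPM in MIZ-1ΔPOZ (SD, n = 2), 1.35-fold higher in MIZ-1WT. The log2 fold change was -0.43 (standard error 0.05, 95% confidence interval -0.56 to -0.30, adjusted p = 0.00291, edgeR).

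Git2 (ENSMUSG00000041890, minus strand, chr5:114727407-114775517) encodes an ARF GTPase-activating scaffold that carries PIX proteins to paxillin. Its counts were 5076, 4813, 3856 and 4069, and its levels 116, 114.5, 81.0 and 92.7 CPM. Both MIZ-1ΔPOZ libraries were lower, and replicate 1 more so than replicate 2. The log2 fold change was -0.41 (standard error 0.07, 95% confidence interval -0.59 to -0.23, adjusted p = 0.00889, edgeR). It missed the threshold without MIZ-1WT replicate 1 (-0.40, adjusted p = 0.0662, edgeR) and without MIZ-1WT replicate 2 (-0.42, 0.0522).

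Nedd9 (ENSMUSG00000021365, minus strand, chr13:41309581-41487362) encodes HEF1, also called CAS-L, the CAS protein of lymphocytes. It had 23860, 24023, 26784 and 26620 counts, or 547, 572, 563 and 607 CPM. The MIZ-1WT and MIZ-1ΔPOZ values overlapped. Its log2 fold change was 0.06 (95% confidence interval -0.08 to 0.21, adjusted p = 0.419, edgeR).

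In the order of levels per kilobase of exon, Nedd9 was first in both genotypes, at 87.7 ± 2.73 in MIZ-1WT and 91.7 ± 4.85 CPM per kilobase in MIZ-1ΔPOZ (SD, n = 2). Talin and PYK2 followed in MIZ-1WT at 65.4 ± 2.27 and 63.0 ± 3.08, and their libraries overlapped. In MIZ-1ΔPOZ they were apart, at 71.5 ± 4.53 for Tln1 and 40.9 ± 3.46 for Ptk2b. Crk, Tnk2, Pxn, Git2 and Vcl came next in the same order in both genotypes, from 26.2 down to 3.43 in MIZ-1WT and from 19.5 down to 2.930 in MIZ-1ΔPOZ. Ptk2 was last in MIZ-1WT, at 1.68 ± 0.198, below Zyx at 2.66 ± 0.190. In MIZ-1ΔPOZ it was at 2.929 ± 0.126, within the range of Vcl and above Zyx at 2.12 ± 0.119. No other neighbours in either order had overlapping libraries. Git2 was assigned the longest exon length, 17362 bases over all its transcripts, which lowers its value on this scale.

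Within MIZ-1ΔPOZ, 9 of the 10 genes were lower in replicate 1 than in replicate 2, by up to 0.19 on the log2 scale for Git2. Ptk2 was the exception, 0.09 higher in replicate 1. In MIZ-1WT it was 0.24 lower in replicate 1. The share of all tested genes lower in MIZ-1ΔPOZ replicate 1 was not counted, so the 9 genes may only follow the library. The pan-B cell sum was also lower in that replicate, at 8576 against 9031 CPM. Markers of other cells moved with genotype and replicate. All 16 macrophage markers tested were called higher, with a median log2 fold change of 2.00, and their sum was 964 and 1286 CPM in MIZ-1WT and 5771 and 3610 CPM in MIZ-1ΔPOZ. Their sum had the same order over the 4 libraries as the level of Ptk2. So had the sums of the plasma cell and conventional dendritic cell genes given below, so the order does not single out macrophages. Between the MIZ-1ΔPOZ replicates the macrophage sum differed far more than Ptk2 did (35.6 and 33.5 CPM). The part of these cells in the result was not tested. Of the pan-B cell genes, 8 of 10 were called lower, with a median log2 fold change of -0.26. The 95% confidence intervals of Vcl, Zyx, Git2 and Tnk2 hold that median, and those of the other members do not. The value of Ptk2b lies 0.36 below it and that of Crk 0.17 below it. Those of Pxn, Nedd9, Tln1 and Ptk2 lie 0.16, 0.32, 0.39 and 1.06 above it. The pan-B cell genes themselves ranged from -0.71 (Vpreb3) to -0.05 (Blnk), so their median is a loose reference.

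**Figure D3:**
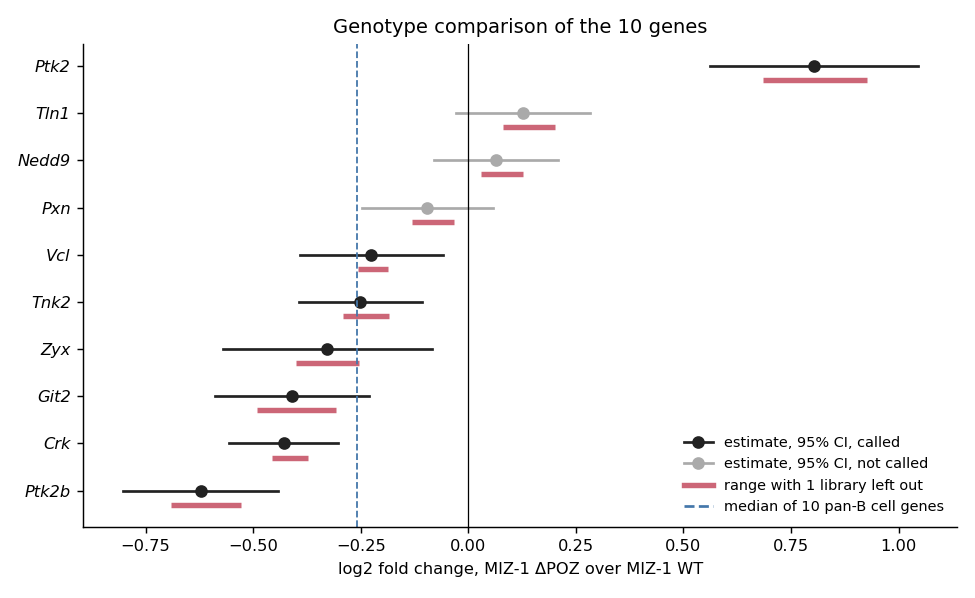
Log2 fold change of each gene (MIZ-1ΔPOZ over MIZ-1WT) with its 95% confidence interval from edgeR as a point and thin line, the range over fits with 1 library left out as a thick line, and the pan-B cell median (-0.26) over 10 genes as a dashed line. Ptk2 (0.80) stands above and Ptk2b (-0.62) below all the others, and the intervals of Pxn, Tln1 and Nedd9 hold 0.

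B cell subsets and other cells were read from marker sums in the same libraries. The 8 marginal zone B cell genes were all called higher (sum 2708 and 2723 CPM in MIZ-1WT, 3430 and 3693 CPM in MIZ-1ΔPOZ), and 3 of 5 follicular genes were called lower (1731 and 1849 against 1416 and 1522 CPM). Of 8 plasma cell genes, 6 were called higher (912 and 1235 against 2741 and 2580 CPM). Conventional dendritic cell genes had 4 of 8 called higher and 1 lower (104 and 118 against 381 and 283 CPM). Most of that sum and of its rise was Sirpa alone (63.9 and 77.3 against 312 and 231 CPM). Xcr1, Clec9a and Clec10a were not called, and Cd209a was the gene called lower. Plasmacytoid dendritic cells, which also carry B220, had 1 of 8 called in each direction (1084 and 1004 against 871 and 904 CPM). The gene called lower, Ly6d, made up most of that sum and its fall (794 and 738 against 580 and 623 CPM). The gene called higher was Pacsin1 (12.6 and 11.8 against 20.1 and 22.8 CPM). Platelets hold much talin, vinculin and zyxin. Of 10 platelet and megakaryocyte genes, Gp1bb was at 0 counts in every library and 5 others were too low to test. Pf4 was the 1 called higher (6 and 3 against 25 and 15 counts), and Itga2b had 58, 52, 51 and 55 counts. The sums, between 43.0 and 51.6 CPM, were almost all Itgb3 (41.1 to 49.6 CPM). T cell genes had 2 of 13 called higher (sums between 38.5 and 64.1 CPM), and NK cell genes 1 of 8 called in each direction (53.7 to 61.2 CPM). Neutrophil genes had 2 of 7 called higher (4.83 to 17.9 CPM) and erythroid genes 1 of 9 (43.3 to 119.9 CPM). Endothelial and stromal genes had 1 of 4 called in each direction (303 to 325 CPM), with Col1a1 and 7 others too low to test. Pecam1 was most of that sum and was called lower (308 and 310 against 253 and 264 CPM). Stab2 was called higher (10.3 and 12.3 against 46.5 and 34.9 CPM). How much these shifts bear on the 10 genes was not tested.

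Close relatives of the 10 genes were followed to see whether a family moved together. Crkl, the paralog of Crk, was also lower, at 88.5, 84.2, 67.7 and 73.0 CPM (log2 fold change -0.30, standard error 0.06, adjusted p = 0.0136, edgeR). Lpp, a relative of zyxin, was lower as well, at 62.8, 56.2, 38.5 and 47.7 CPM (-0.47, standard error 0.11, adjusted p = 0.0239, edgeR). Both therefore had the sign of their relative. Git1, the paralog of Git2, was at 18.1, 17.7, 16.3 and 17.9 CPM (-0.06, adjusted p = 0.587, edgeR), and leupaxin (Lpxn), the blood cell paralog of paxillin, at 193, 196, 207 and 190 CPM (0.03, adjusted p = 0.742, edgeR). Neither was called. Tgfb1i1, Trip6 and Cass4 were low and not called, with log2 fold changes of -0.50, -0.14 and -0.61, and Ctnna1 was at 0.08. Tnk1, Bcar1 and Efs were too low to test, so HEF1 was the main CAS gene of these libraries. Tln2 had 2 and 3 counts in MIZ-1WT and 36 and 17 in MIZ-1ΔPOZ, a ratio of 9.92 with a 95% counting interval of 3.996 to 31.8 (adjusted p = 0.0112, edgeR). Even so, talin RNA was almost entirely Tln1. In the 9 pairs compared for shared sequence, 0 windows of 50 bases were shared. The longest shared run was 30 bases, for Tln1 and Tln2, and it was 23 bases for Crk and Crkl and 20 bases for Git2 and Git1.

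Beyond the 10 genes, 77 further genes of adhesion sites were listed by role, of which 67 were tested. Of these, 17 were called higher and 14 lower, with a median log2 fold change of 0.01, near the share over all tested genes. With library totals in place of TMM normalization the split was 23 higher and 10 lower, and over all genes it went from 3076 higher and 2746 lower to 3606 and 2035. The genes called higher were mostly low in MIZ-1WT, with a median of 3.72 CPM, and 9 of 17 were below 10 CPM. Those called lower had a median of 113 CPM in MIZ-1WT and 0 of 14 were below 10 CPM. Over all genes the medians were 8.63 and 68.5 CPM, so the difference in level between the directions was present there too. Of the 10 genes, Ptk2 (19.8 CPM) was second lowest in MIZ-1WT, after Zyx (14.4 CPM).

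**Figure D4:**
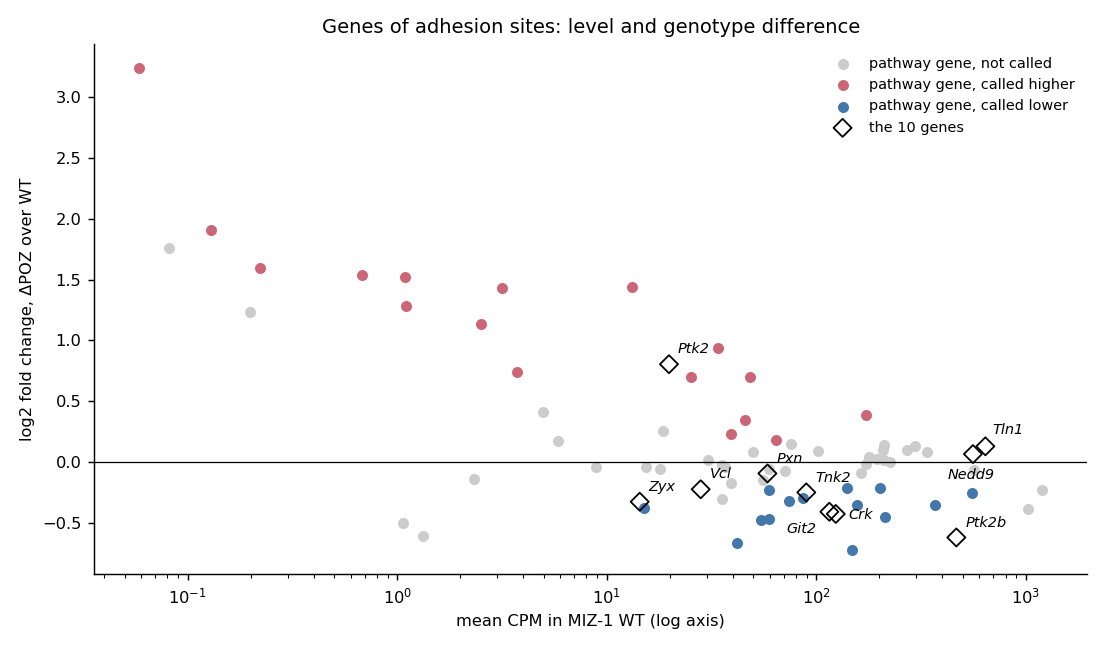
Mean level in MIZ-1WT (CPM, log axis) against the log2 fold change (MIZ-1ΔPOZ over MIZ-1WT) for the 67 tested adhesion genes, coloured by call, and the 10 genes as diamonds. Genes called higher sit mostly at low levels (median 3.72 CPM) and genes called lower at high levels (median 113 CPM).

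By role, the actin crosslinkers and tensins had the most calls upward, with 6 of 11 tested genes higher and 2 lower. Actn1, the alpha-actinin that bundles actin at adhesions, was at 13.5, 12.8, 42.1 and 29.4 CPM (log2 fold change 1.44, adjusted p = 0.00297, edgeR), and Tns3, a tensin, at 25.4, 25.2, 40.7 and 41.3 CPM (0.70, adjusted p = 0.00135, edgeR). Pdlim5, a PDZ and LIM protein, was lower in the same list (-0.32, adjusted p = 0.00573, edgeR). Like Ptk2 and the macrophage markers, Actn1 was higher in MIZ-1ΔPOZ replicate 1 than in replicate 2, whereas Tns3 was not.

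Among SRC family and other kinases, 4 of 13 were called higher and 2 lower. Src itself, the partner of phosphorylated FAK, was low, at 1.03, 1.17, 2.69 and 2.67 CPM (1.28, adjusted p = 0.00560, edgeR). Lyn, the main SRC family kinase of B cells, was far more abundant, at 567, 559, 541 and 536 CPM, and was not called (-0.06, 95% confidence interval -0.18 to 0.05). Pak1, a kinase activated by RAC and CDC42, was at 3.19, 3.14, 9.24 and 7.79 CPM (1.43, adjusted p = 0.00203, edgeR). The ILK, PINCH and parvin list had 1 of 5 genes called, Rsu1, which binds PINCH. It was at 33.2, 34.8, 64.9 and 65.3 CPM (0.94, standard error 0.06, adjusted p = 0.000758, edgeR).

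Lower calls were spread over several lists. Of the CAS and CRK adaptors and their partners, 5 of 14 were called lower and 2 higher, counting Crk and Nedd9 among the 14. Of the phosphatases and regulators of FAK and paxillin, 3 of 10 were lower and 1 higher. These included Rb1cc1, which encodes FIP200, an autophagy protein also known to bind and inhibit FAK and PYK2. It was at 209, 219, 159 and 153 CPM (-0.45, adjusted p = 0.00230, edgeR). Rasa1, a RAS GTPase-activating protein, was lower by a smaller amount (-0.36, adjusted p = 0.00331, edgeR).

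The remaining lists had few calls or calls in both directions. The zyxin and VASP list had 2 of 9 genes higher and 3 lower. Limd1, a zyxin relative at 365, 372, 286 and 292 CPM, fell (-0.35, adjusted p = 0.00331, edgeR), and the low Fblim1 rose from 31 and 27 counts to 101 and 80 (1.54, adjusted p = 0.00545, edgeR). In the talin and vinculin list, 1 of 6 was higher (Tln2) and 2 were lower. Beside Vcl, the lower gene was Apbb1ip, which encodes RIAM, the protein that brings talin to integrins, at 43.6, 39.8, 24.1 and 28.4 CPM (-0.67, adjusted p = 0.00528, edgeR). The paxillin family had 0 of 3 genes called by edgeR, and the GIT and PIX scaffolds had 1 of 4, which was Git2.

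Promoters were searched in RefSeq's table for GRCm38.p6, from 250 bases before to 50 bases after each start. The table held 7 of the 10 genes, and Ptk2, Ptk2b and Pxn were not among them. The starts it held for Tnk2 (in chr16:32672904-32673203) and Nedd9 (in chr13:41358952-41359251) lie far inside the gene spans given above. The MIZ-1 core ATCGGT was found in 0 of the 7 on either strand (2.34% of all 32544 promoters) and the E-box CACGTG in 0 of the 7 (7.17%). At such shares 0 of 7 is the likely outcome for any genes, so it cannot tell whether MIZ-1 acts on these. Starts that RefSeq's table does not hold were not searched. The CArG box, the motif of serum response factor, was found in Vcl alone (1.64% of all). The 250 bases before the start of Vcl are shown for that box, which is in capitals with its first base at position -227. They lie on the plus strand at chr14:20929148-20929397.
Vcl: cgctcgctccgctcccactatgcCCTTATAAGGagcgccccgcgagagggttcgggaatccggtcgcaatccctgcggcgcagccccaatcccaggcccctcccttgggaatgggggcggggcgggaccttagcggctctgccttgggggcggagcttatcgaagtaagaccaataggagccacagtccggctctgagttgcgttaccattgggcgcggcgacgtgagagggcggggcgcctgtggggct
A match is a run of letters and does not show binding. The GC content of the 7 promoters was between 55.7% and 68.3%, above the median of all promoters, 53.0%.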

How the data were processed

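B220+ splenocytes of both genotypes gave 4 ribosomal RNA-depleted, stranded, paired-end libraries. The authors deposited raw HTSeq counts per Ensembl gene, neither normalized nor pooled, after trimming with Trimmomatic and mapping to GRCm38 (mm10) with TopHat2 (2.1.0 in the submitters' processing notes). Samples were grouped by the labelled genotype. HTSeq's summary lines were left out of library sizes. Reads outside genes were 27.2% and 25.5% of the table in MIZ-1WT and 21.6% and 21.1% in MIZ-1ΔPOZ, so this share differed with genotype. Reads without a unique alignment were 42.8% to 44.1%. A symbol from GENCODE was found for 40254 of 41214 genes.

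A gene was kept when 2 or more libraries had 10 or more counts, and was fitted with edgeR 4.0.16 in R 4.3.3 (TMM factors 0.977 to 1.03, quasi-likelihood test, Benjamini-Hochberg adjustment over 14554 genes). The common dispersion was 0.00848. CPM used TMM normalized library sizes, and levels between genes were divided by the union of exons. A run on simulated counts tested the code alone, since those counts held no shift in cell mixture or sex.

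The members, 10 role lists and 13 marker lists were chosen with earlier results of these data known. Named genes were the 10 members, their close paralogs, the 6 other adhesion genes with the smallest p called in each direction, and the 3 protein-coding genes nearest to Ptk2. A gene that meets this rule is not reported here. Lyn was named for contrast after its value was seen. Alternatives were DESeq2's size factors, library totals alone, DESeq2 1.42.0, no filter, a replicate block, a minimum mean of 30 RPM, and leaving out each library. Counting intervals cover counting error only.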

Additional observations from a re-analysis of the deposited data

How the results depend on the processing

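The directions of all 10 genes were kept under every alternative run. Ptk2 passed the threshold in 9 of 9 fits that tested it, and Ptk2b and Crk in 10 of 10. Calls near the threshold were lost. With library totals alone, Vcl was at -0.17 (adjusted p = 0.102, edgeR) and Zyx at -0.27 (0.0787), and the median of all genes was 0.05. With the Wald test of DESeq2, Vcl was at -0.22 (adjusted p = 0.103) and Zyx at -0.33 (0.0844). With the replicate block, Vcl was at -0.23 (adjusted p = 0.0768, edgeR) and Zyx at -0.33 (0.0903), no other of the 10 genes changed its call, and 4732 genes were called in place of 5822. The labels do not say whether the numbers pair samples. Deviations of same-numbered libraries correlated at -0.07 over genes, which cannot settle it. A mean of at least 30 RPM removed Ptk2, Vcl and Zyx and left 6052 genes, of which 1464 were higher and 1282 lower. Of the 10 genes, 3 were then lower, Tln1 was called at 0.20 (adjusted p = 0.0476, edgeR) and Tnk2 was not at -0.18 (0.0519).

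Leaving out each library gave 1 to 2 of the 10 genes higher and 2 to 5 lower, 9 to 15 other adhesion genes higher and 5 to 16 lower, and 1374 to 2955 of all genes higher and 848 to 2626 lower. The lowest counts came without MIZ-1WT replicate 1. Log2 fold changes ranged from -0.26 to -0.19 for Vcl, -0.40 to -0.25 for Zyx, -0.49 to -0.31 for Git2, -0.29 to -0.19 for Tnk2 and, for Tln1, from 0.081 to 0.20. The cause was not tested. The depth gave at least 522 counts per library for each of the 10 genes.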
